A study of Mus musculus with 15 samples.

Results

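The semaphorins, the plexins and the 2 neuropilins form one guidance system of secreted and membrane-bound ligands with their receptors, and their RNA was measured in 4T1 cells, a mouse mammary carcinoma line. Members were picked from the gene count table by symbol alone, as every numbered semaphorin, every plexin and both neuropilins. The search returned 31 genes of 40402, namely 20 semaphorins, 9 plexins and 2 neuropilins. The 5 conditions, all in wild-type 4T1 cells, were untreated cells, blackberry extract (BLA), blueberry extract (BLU), gold nanoparticles made with blackberry extract (BLA-A) and gold nanoparticles made with blueberry extract (BLU-A). The labels give neither dose nor length of treatment, while the paper states that the same concentration was used across treatments. No cells given gold without extract were analysed here.

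Total RNA was depleted of ribosomal RNA and sequenced, and each condition was deposited as 3 columns of gene counts. Differences among the 3 columns of each condition were smaller than the sampling noise, with a chi-square per degree of freedom between 0.0951 and 0.475, and the columns were therefore averaged and counted as 1 library. The labels number the columns as separate samples without naming separate cultures. In the paper, replicates are described in general as independent biological ones, 3 where not specified. Its supplement, however, reports gene-level counting from 5 alignment files. With the columns averaged, each fold change below compares 2 libraries and carries no p-value. The 5 libraries held 25613778 to 26956442 counts each, so that 3 counts, taken as the floor of detection, corresponded to 0.111 to 0.117 CPM (counts scaled to a library of 1000000). The labels give each sample a batch date of its own, so batch and treatment cannot be told apart. In bulk RNA, fewer cells of one kind and less RNA per cell cannot be told apart either. Of the 7 mammary epithelial markers examined, all were detected, with a summed level of 989 to 1831 CPM. Immune markers summed to 8.38 to 11.1 CPM and endothelial markers to 3.67 to 7.84 CPM, while neuronal markers summed to 1.60 to 10.7 CPM. Fibroblast markers summed to 87.2 to 104 CPM, nearly all of it Pdgfra, and glial markers to 37.1 to 63.0 CPM, nearly all of it Mbp. Lum and Olig1 were at 0 counts in every library.

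Semaphorins share an extracellular sema domain and act mostly as repellent or attractant cues for growing axons, vessels and migrating cells. Class 3 members are secreted, classes 4, 5 and 6 span the membrane, and Sema7a is held by a lipid anchor. Plexins are their signalling receptors and act on small GTPases through a cytoplasmic domain, whereas neuropilins bind most class 3 semaphorins, and also vascular endothelial growth factors, and pass the signal to a plexin. In carcinomas the system has been studied for its part in migration, invasion and vessel growth.

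Sema6c, a transmembrane class 6 semaphorin, was compared with its family because the study names it and because it was higher in these libraries, so its values are given as a description. The gene lies on chromosome 3 on the plus strand of GRCm39, at chr3:95067726-95084627, a span of 16.9 kb that overlaps no other annotated gene. Upstream sequence is shown for Sema6c, for Plxnb2 at an internal start and for Sema3d, as examples of members higher in all 4 treated libraries, higher in BLA-A, and lower in the treated libraries, beside which members with other patterns are described below. The sequences come from RefSeq promoter windows, tabulated for GRCm38.p6 and placed on GRCm39 by exact match, and each is cut before the first base that lies in an exon of GENCODE M39. They read 5′ to 3′ on the strand of the gene. Capitals mark GGGCGG (the GC box) and CCAAT (the CCAAT box), or their reverse complements.

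Sema6c, chr3:95067481-95067725, plus strand: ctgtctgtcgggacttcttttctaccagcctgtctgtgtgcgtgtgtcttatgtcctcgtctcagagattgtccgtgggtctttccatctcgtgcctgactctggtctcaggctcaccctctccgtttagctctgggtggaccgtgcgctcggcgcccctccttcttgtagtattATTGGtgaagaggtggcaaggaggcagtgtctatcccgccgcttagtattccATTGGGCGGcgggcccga
Plxnb2, second start, chr15:89058172-89058404, minus strand: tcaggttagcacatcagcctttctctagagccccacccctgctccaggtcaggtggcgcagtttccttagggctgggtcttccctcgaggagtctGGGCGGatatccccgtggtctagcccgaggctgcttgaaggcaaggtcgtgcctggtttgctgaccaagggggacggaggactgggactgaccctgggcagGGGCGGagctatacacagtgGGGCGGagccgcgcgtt
Sema3d, chr5:12432883-12433123, plus strand: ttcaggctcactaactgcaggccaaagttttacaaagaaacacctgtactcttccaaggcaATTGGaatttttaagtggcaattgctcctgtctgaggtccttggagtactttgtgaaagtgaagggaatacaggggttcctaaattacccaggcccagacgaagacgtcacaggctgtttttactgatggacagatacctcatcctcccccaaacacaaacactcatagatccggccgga

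The Sema6c stretch held 1 GC box, which overlaps an inverted CCAAT box, and a further inverted CCAAT box upstream of it. At the internal start of Plxnb2, 3 GC boxes and no CCAAT box were found, and Sema3d had no GC box and 1 inverted CCAAT box. Promoter windows of 250 bases before a RefSeq start were available for 26 of the 31 members, giving 37 windows. GGGCGG on either strand occurred in 27 of these 37 windows, belonging to 21 members, compared with 32.7% of all 32851 windows. CCAAT on either strand occurred in 7 of the 37, compared with 33.8% of all windows. TATAAA on either strand occurred in 0 of the 37 and in 12.4% of all. Member windows had a median GC content of 64.0% and a median of 13 CpG, and all windows had medians of 52.4% and 6. A match describes the letters only, and several windows belong to the same gene.

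Levels between genes were compared per kb of gene span, since reads had been counted over whole genes, introns included. In untreated cells, Plxnb2 had the highest level, at 7.52 CPM per kb of span, followed by Nrp2 at 5.81 and Sema4c at 4.15. Per kb of exon the order was different, with Nrp2 first at 55.7 CPM per kb, then Plxnb2 at 23.4 and Sema5b at 20.7, while Sema4c was at rank 10. Sema6c stood at rank 23 by span, with 0.0355 CPM per kb, and at rank 29 by exon, with 0.0557 CPM per kb. Sema6c was thus in the lower part of its family in untreated cells on both scales. Counts of Nrp2 outweighed all others, and the 2 neuropilins together made up 36.7% to 43.5% of all member counts in each library.

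**Figure D1:**
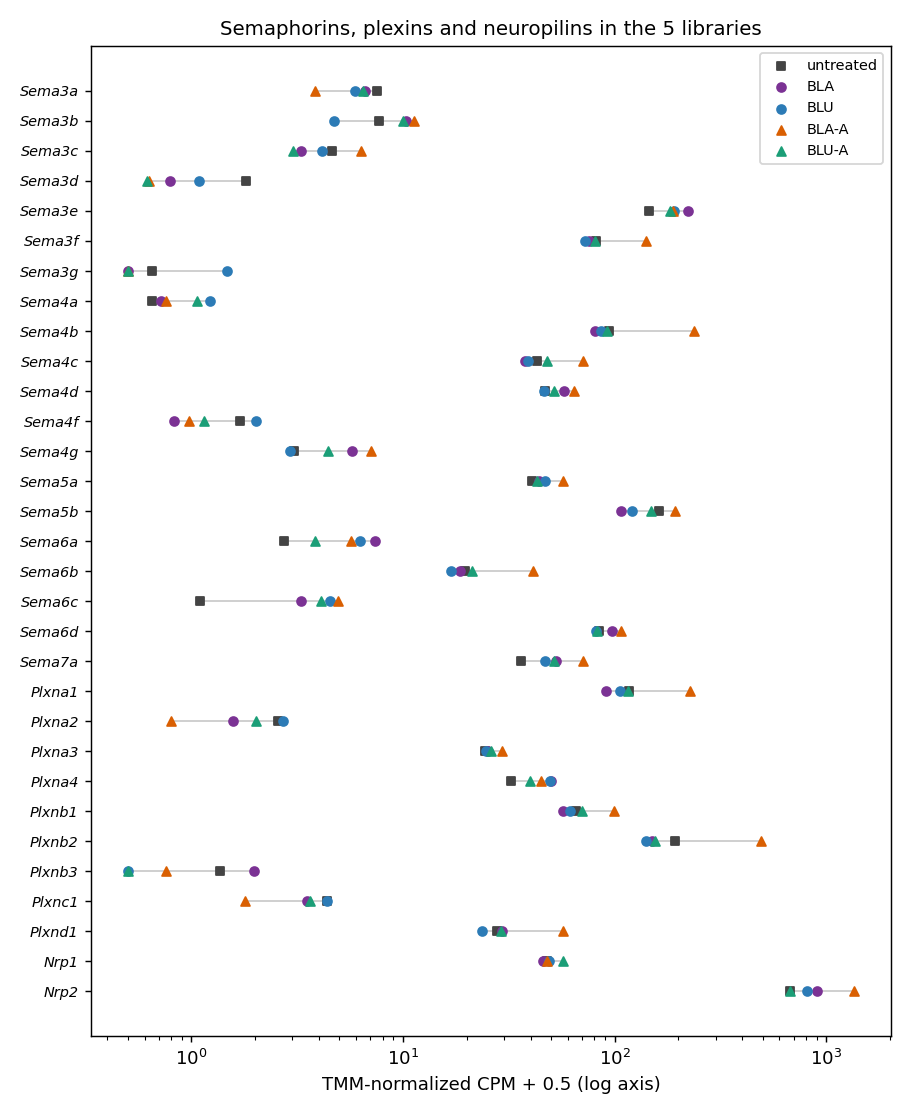
Level of each of the 31 members in the 5 libraries, as normalized CPM + 0.5 on a log axis; each point is 1 library and the grey line joins the lowest and highest. Sema6c was lowest in the untreated library, and Nrp2 (671 to 1353 CPM) had the highest level in every library.

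A gene was kept for comparison when it reached 1 CPM in at least 1 library, which left 17647 genes and 30 of the 31 members. Sema4a, a transmembrane class 4 semaphorin, was not kept, with 4 counts in untreated cells, 6 with BLA, 20 with BLU, 6 with BLA-A and 15 with BLU-A. Log2 fold changes below were taken on normalized CPM + 0.5, a scale that understates changes of low genes, and a gene was called past a size of 1. Of the members kept, Sema3d reached 1 CPM in the untreated library alone, Sema3g in BLU alone and Plxnb3 in BLA alone. Sema6c reached it in the 4 treated libraries and not in the untreated one, Sema4f in untreated and BLU only, and Plxna2 in all but BLA-A. A call of these genes in the direction of the libraries that reached 1 CPM was helped by the filter. The 4 treatments were compared with the same untreated library. Intervals of 95% on ratios cover counting error only, and neither PCR copies nor the spread between cultures.

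Sema6c had 16 counts in the untreated library, 76 with BLA, 110 with BLU, 103 with BLA-A and 95 with BLU-A. All 4 treated libraries were above the untreated one. Its ratio to untreated was 4.65 in BLA (95% interval 2.69 to 8.54), 6.65 in BLU (3.92 to 12.0), 7.40 in BLA-A (4.35 to 13.4) and 5.97 in BLU-A (3.49 to 10.9). On the log2 scale with the added 0.5 CPM these were 1.58, 2.03, 2.17 and 1.89. The 4 intervals overlapped one another, but all share the 16 untreated counts, so the overlap does not show whether the treatments differ. The 2 coding neighbours within 20 kb of Sema6c, both on the opposite strand, were Gabpb2 and Tnfaip8l2. Gabpb2, a subunit of a GA-binding transcription factor that lies 4450 bases away, had 2553 counts in untreated cells, 2607 with BLA, 3064 with BLU, 2198 with BLA-A and 2579 with BLU-A. Tnfaip8l2, at 18041 bases, had 9, 0, 20, 5 and 15 counts in the same order.

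Among the other class 6 semaphorins, which are also transmembrane ligands of class A plexins, only Sema6a shared the order of untreated below all 4 treatments. Sema6a had 60 counts in untreated cells, 187 with BLA, 159 with BLU, 120 with BLA-A and 88 with BLU-A. Its ratio to untreated was 3.05 in BLA (95% interval 2.27 to 4.15), 2.56 in BLU (1.89 to 3.51), 2.30 in BLA-A (1.67 to 3.19) and 1.47 in BLU-A (1.05 to 2.08). Sema6a was thus highest with the plain extracts, and its level in BLU-A was 0.576 times that in BLU (0.438 to 0.751), whereas Sema6c in BLU-A was 0.898 times that in BLU (0.675 to 1.19). Between the blackberry preparations, Sema6c was 1.59 times as high in BLA-A as in BLA (1.17 to 2.17) and Sema6a 0.754 times as high (0.595 to 0.953). Sema6b had 512, 493, 452, 938 and 548 counts in untreated, BLA, BLU, BLA-A and BLU-A. It was past the threshold of 1 only in BLA-A, at 2.11 times untreated (1.89 to 2.35) and 2.24 times BLA (2.00 to 2.50). In BLU its ratio to untreated was 0.854 (0.751 to 0.971). Sema6d, the most abundant member of the class by counts, had 2244, 2645, 2225, 2479 and 2165 counts, with log2 fold changes between -0.06 and 0.34. Summed over class 6 without Sema6c, the level was 106 CPM in untreated cells, 122 with BLA, 103 with BLU, 153 with BLA-A and 106 with BLU-A, so that the class as a whole did not follow Sema6c.

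**Figure D2:**
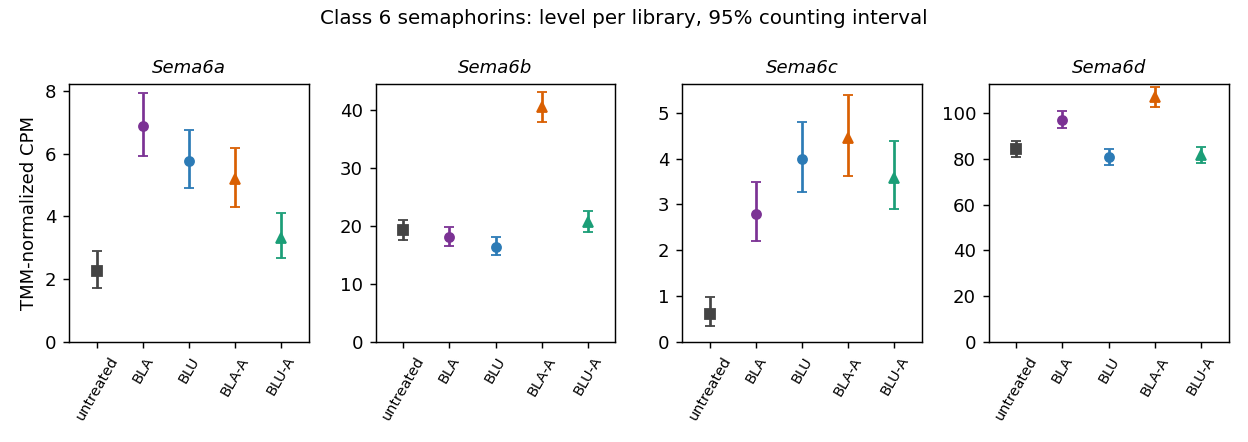
Level of the 4 class 6 semaphorins in each library, in normalized CPM on axes from 0; points are libraries and bars are 95% Poisson intervals of the counts. Sema6c was at 0.600 CPM without treatment and at 2.79 to 4.44 CPM with it, while Sema6b was high in BLA-A only and Sema6d stayed between 80.7 and 107 CPM.

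Whether the treated libraries as a group differed from the untreated one was tested with edgeR's quasi-likelihood test, taking the 4 treated libraries against the 1 untreated library. The spread then comes from 4 different treatments and 3 residual degrees of freedom, and the untreated library is assumed to vary like the others. None of the 30 members passed an adjusted p of 0.05 (edgeR quasi-likelihood, Benjamini-Hochberg over 17647 genes), against a background of 0.0227% of all genes. At an unadjusted p under 0.05 the same test called 1 member, Sema6c, beside 2.73% of all genes, and since Sema6c was taken up for its higher values here, this p restates that choice. For Sema6c the fitted log2 fold change was 2.61 (SE 0.71), with an unadjusted p of 0.00705 and an adjusted p of 0.999 in the edgeR quasi-likelihood fit. DESeq2 called 0 members after adjustment (0.105% of all genes) and 2 before it (6.67%, against 4.37% of all genes), with an adjusted p of 0.0886 for Sema6c. For Sema6a, the edgeR quasi-likelihood fit gave 1.23 (SE 0.60) with an unadjusted p of 0.0789.

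By treatment, 4 members crossed the threshold of 1 with BLA, 13.3% of those kept, compared with 16.5% of all genes. Sema6c and Sema6a were higher, where 7.92% of all genes were, and Sema3d and Sema4f were lower, where 8.54% were. In BLU, 4 members were past 1 (13.3%, against 10.3% of all genes), with Sema6c, Sema6a and Sema3g, kept through BLU alone, higher (5.66% of all genes) and Plxnb3 lower (4.64%). BLU-A had 3 members past 1 (10.0%, against 7.85% of all genes), namely Sema6c, which was higher (3.35% of all genes), and Sema3d and Plxnb3, which were lower (4.5%). The member counts in these 3 treatments were near the background, and all of the members involved had a mean of 10 CPM or less. Among the 18 members with a mean over 10 CPM, 0 were past 1 with BLA, BLU or BLU-A, where 4.81%, 2.09% and 0.643% of all genes at that level were. Median log2 fold changes of the 30 members were -0.07 with BLA, -0.06 with BLU and 0.04 with BLU-A, compared with -0.01, -0.01 and 0.001 over all genes.

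BLA-A differed from the other treatments in the number of members past 1, which was 11 (36.7%) compared with 20.9% of all genes. Sema6c, Plxnb2, Sema4b, Sema4g, Sema6b, Sema6a, Plxnd1 and Nrp2 were higher, 8 of 30 where 8.54% of all genes were higher. Plxna2, Sema3d and Plxnc1 were lower, 3 of 30 where 12.4% of all genes were lower. The median over members was 0.48 and that over all genes -0.01. The split of higher against lower depended on the scaling and on the pseudocount, since libraries scaled by total counts, which shifted the median of all genes in BLA-A by -0.17, gave 4 higher (Plxnb2, Sema4b, Sema4g and Sema6c) and 4 lower (Plxna2, Plxnc1, Sema3a and Sema3d), where 6.1% of all genes were higher and 15.4% lower. A pseudocount of 0.1 in place of 0.5 gave 8 higher and 7 lower, where 10.4% of all genes were higher and 16.2% lower. Among the 18 members with a mean over 10 CPM, 5 were past 1 in BLA-A, all of them higher, beside 12.2% of all genes at that level in either direction.

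**Figure D3:**
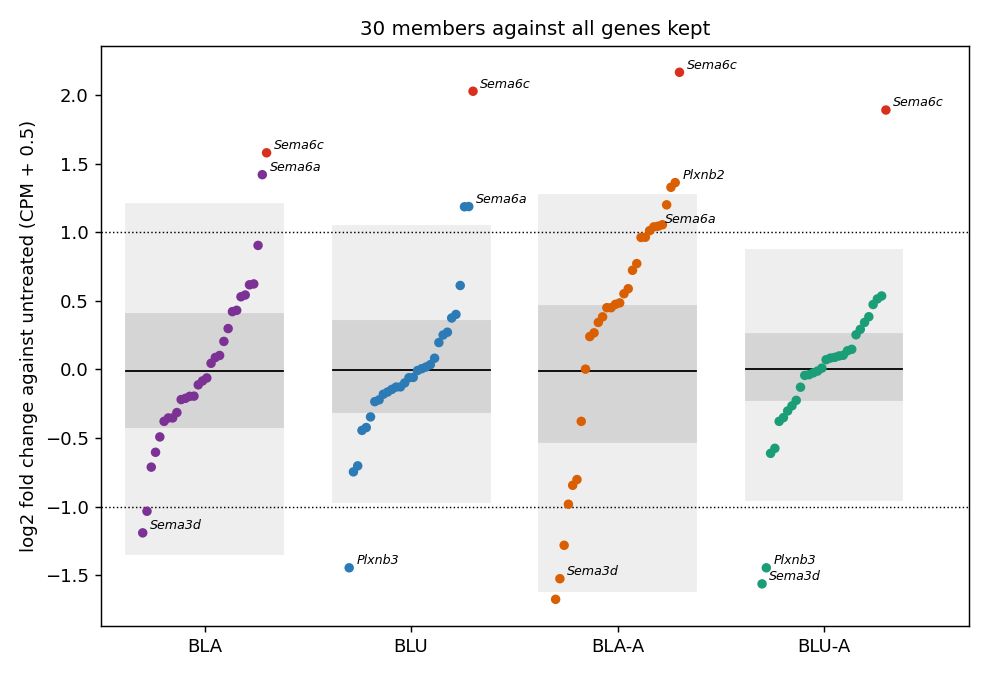
Log2 fold change of the 30 members kept, in each treatment against the untreated library, ordered by value; the light band holds the middle 90% of all 17647 genes, the dark band the middle 50% and the line is their median, with dotted lines at 1 and -1. Sema6c (red) was the highest member in every treatment, and BLA-A had 11 members past 1 in size compared with 3 or 4 in the others.

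BLA-A was the library with the highest level for 19 of the 30 members (63.3%), while it was the highest for 29.3% of all genes. With total-count scaling it was the highest for 14 members (46.7%) and for 22.5% of all genes. The untreated library was the lowest of the 5 for 8 members (26.7%, against 19.4% of all genes, and the same 8 against 15.1% with total-count scaling), which were Nrp2, Plxna3, Plxna4, Sema3e, Sema5a, Sema6a, Sema6c and Sema7a.

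Class B plexins are the receptors of class 4 semaphorins. Plxnb2 had 5100 counts in untreated cells, 4076 with BLA, 3872 with BLU, 11428 with BLA-A and 4110 with BLU-A. BLA-A was far above the others, while BLA, BLU and BLU-A were all below untreated. Its ratio was 2.58 for BLA-A against untreated (95% interval 2.49 to 2.66) and 3.29 for BLA-A against BLA (3.18 to 3.42). The summed level of the 3 class B plexins was 257 CPM in untreated cells, 207 with BLA, 201 with BLU, 592 with BLA-A and 224 with BLU-A, most of it Plxnb2. Plxnb1, the receptor of Sema4d, was at 65.3, 56.3, 60.9, 98.4 and 69.4 CPM in the same order. Plxnb3, a receptor of Sema5a, had 23 counts in untreated cells, 40 with BLA, 0 with BLU, 6 with BLA-A and 0 with BLU-A. Set against a floor of 3 counts per library, its 23 untreated counts put it at least 7.93-fold lower in BLU and at least 7.62-fold lower in BLU-A. The counting error of both libraries, which that floor does not include, gave 95% intervals of the ratio that reached 0.168 in BLU and 0.175 in BLU-A. In BLA its ratio to untreated was 1.70 (0.994 to 2.98), an interval that includes 1.

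The ligands of these receptors, the class 4 semaphorins, had a summed level of 186 CPM in untreated cells, 180 with BLA, 175 with BLU, 377 with BLA-A and 194 with BLU-A. Sema4b contributed most to this, with 2496 counts in untreated cells, 2189 with BLA, 2362 with BLU, 5470 with BLA-A and 2417 with BLU-A. In BLA-A its ratio was 2.52 to untreated (2.40 to 2.64) and 2.94 to BLA (2.79 to 3.09), and in BLU-A it was 0.974 to untreated (0.920 to 1.03). Sema4c, a ligand of Plxnb2, had 1134, 1011, 1059, 1636 and 1250 counts and a BLA-A ratio of 1.66 (1.54 to 1.79). Sema4d, known also as an immune semaphorin, lay between 46.0 and 63.5 CPM in all 5 libraries. Sema4g had 68 counts in untreated cells, 142 with BLA, 67 with BLU, 151 with BLA-A and 104 with BLU-A. It was above untreated with both blackberry preparations, at ratios of 2.04 in BLA (1.52 to 2.77) and 2.55 in BLA-A (1.91 to 3.45). It was also higher in BLU-A, at 1.54 (1.12 to 2.12). It overlaps Mrpl43, a mitochondrial ribosomal protein gene on the opposite strand with 226, 242, 295, 554 and 257 counts, and reads could be split between the 2 genes if strand was not fully kept. Sema4f had 32, 9, 42, 11 and 17 counts.

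Class A plexins carry the signals of class 3 semaphorins through neuropilins and of class 6 semaphorins directly. Plxna1 had 3088 counts in untreated cells, 2467 with BLA, 2920 with BLU, 5252 with BLA-A and 3046 with BLU-A. It was just under the threshold in BLA-A against untreated, with a log2 fold change of 0.96, and past it against BLA, with 1.32. Plxna4 had 850, 1346, 1351, 1032 and 1038 counts, so that all 4 treated libraries were above the untreated one, at ratios from 1.23 in BLU-A (1.12 to 1.35) to 1.55 in BLA (1.42 to 1.69). Plxna3 lay between 23.8 and 28.8 CPM. Plxna2, in contrast, had 55 counts in untreated cells, 29 with BLA, 61 with BLU, 7 with BLA-A and 40 with BLU-A, and its BLA-A ratio was 0.146 (0.0562 to 0.322). An antisense RNA in its span, Gm46202, had 35, 0, 12, 1 and 21 counts.

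Plxnd1, the direct receptor of Sema3e, had 725, 788, 635, 1309 and 758 counts in untreated, BLA, BLU, BLA-A and BLU-A. It was 2.08 times as high in BLA-A as in untreated cells (1.89 to 2.28). Its ligand Sema3e followed another order, with 3838, 6026, 5246, 4359 and 4845 counts, and was highest in BLA at 1.54 times untreated (1.47 to 1.60). Plxnc1, the receptor of Sema7a, had 103, 82, 107, 30 and 83 counts, and was lower in BLA-A at 0.335 times untreated (0.215 to 0.507). Sema7a, its ligand, had 952, 1424, 1281, 1625 and 1358 counts and was highest in BLA-A at 1.96 times untreated (1.81 to 2.13). Within these 2 pairs, receptor and ligand therefore did not share an order over the 5 libraries.

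Nrp2, the neuropilin bound by Sema3f, had 17872 counts in untreated cells, 24475 with BLA, 22314 with BLU, 31364 with BLA-A and 17892 with BLU-A. Both blackberry preparations and BLU were above untreated, and BLU-A was at its level, with a ratio of 1.01 (0.986 to 1.03). In BLA-A the ratio was 2.02 (1.98 to 2.06), a log2 fold change of 1.01 that was 0.82 with total-count scaling. Gm29083 and 4930487H11Rik, annotated on the strand opposite to Nrp2 within its span, had 188 to 468 and 223 to 793 counts. Nrp1, the neuropilin bound by Sema3a and by Vegfa, lay between 45.2 and 56.3 CPM, and the BLU-A library was the highest. Of all 30 members, Nrp1 was the only one highest in BLU-A, as were 10.9% of all genes, while total-count scaling gave 2 such members (6.67%, against 12.5% of all genes).

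The secreted class 3 semaphorins did not move as one. Sema3f, which binds Nrp2 and has been studied as a tumour suppressor, had 2169, 2050, 1977, 3230 and 2120 counts, and BLA-A was 1.71 times untreated (1.62 to 1.81). Sema3a, the repellent first known from sensory axons, had 188, 166, 150, 77 and 158 counts, and BLA-A was 0.471 times untreated (0.356 to 0.617). Sema3d had 35 counts in untreated cells, 8 with BLA, 16 with BLU, 3 with BLA-A and 3 with BLU-A, so that every treated library was below the untreated one. Its ratio to untreated was 0.224 in BLA (0.0896 to 0.491), 0.442 in BLU (0.228 to 0.820), 0.0985 in BLA-A (0.0194 to 0.313) and 0.0862 in BLU-A (0.0170 to 0.273). The edgeR quasi-likelihood fit of all treated libraries gave Sema3d an unadjusted p of 0.147. Sema3b, also studied as a tumour suppressor, had 191, 268, 116, 249 and 252 counts, with BLU the lowest. Sema3c ranged from 67 counts in BLU-A to 135 in BLA-A. Sema3g, at 4, 0, 27, 0 and 0 counts, was detected above the floor in untreated cells and in BLU, where its ratio to untreated was 6.53 (2.27 to 25.7).

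Of the class 5 semaphorins, which carry thrombospondin repeats, Sema5b had 4320 counts in untreated cells, 2900 with BLA, 3327 with BLU, 4439 with BLA-A and 3926 with BLU-A. Both plain extracts were the lowest libraries, at ratios of 0.657 (0.626 to 0.689) in BLA and 0.745 (0.712 to 0.779) in BLU. Sema5a ranged from 40.2 to 56.5 CPM, with BLA-A the highest.

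The nanoparticle libraries were also compared with the plain extract of the same berry, which does not involve the untreated library. Between BLA-A and BLA, 5 members were past 1 (16.7%, compared with 24.5% of all genes), with Plxnb2, Sema4b, Plxna1 and Sema6b higher in BLA-A (11.5% of all genes) and Plxnb3 lower (12.9%). The median over members was 0.26 and over all genes -0.08. Between BLU-A and BLU, 2 members were past 1 (6.67%, compared with 6.76% of all genes), namely Sema3b, higher in BLU-A by 1.09 on the log2 scale (2.87% of all genes past 1 upward), and Sema3g, which was lower (3.89% downward). Neither total was above the share of all genes.

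Members differ in base composition and span, and all-gene values moved with composition in BLA-A and, the other way, in BLU and less so in BLA. All genes were divided into 10 equal classes by the GC content of their longest transcript. The median log2 fold change in BLA-A went from -0.23 in the class with the lowest GC to 0.37 in the highest. In BLU it went from 0.08 to -0.13 and in BLA from -0.003 to -0.099, while in BLU-A all 10 medians lay between -0.02 and 0.01. The median GC content of the members was 55.1%. Among members above this, the BLA-A median was 0.96 (n = 15, with 6 higher and 0 lower), and among all genes above it the median was 0.32 (n = 2845) with 23.6% past 1. Members at or under it had a median of 0.34 (n = 15, with 2 higher and 3 lower), and all such genes had a median of -0.07 with 19.7% past 1. For BLA-A against BLA, members above it had a median of 0.84 with 4 higher and 1 lower. All genes above it had a median of 0.37 there with 32.5% past 1. In the same comparison, members at or under it had a median of 0.06 with 0 past 1, and all such genes -0.13 with 21.7% past 1. After the median of each gene's GC class was subtracted, an alternative chosen after the data were seen, 8 members were past 1 in BLA-A, 4 higher and 4 lower, where 7.48% of all genes were higher and 12.0% lower, and the member median was 0.42. The 16 members with a span under 100 kb had a BLA-A median of 0.87 with 6 higher and 0 lower, compared with a median of 0.02 and 17.9% past 1 over all genes of such spans. The 14 with a longer span had a median of 0.36 with 2 higher and 3 lower, and all genes of longer spans had a median of -0.21 with 33.5% past 1, so that the share of long members past 1 was near the background. The part of composition and span in the BLA-A values was not tested further.

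**Figure D4:**
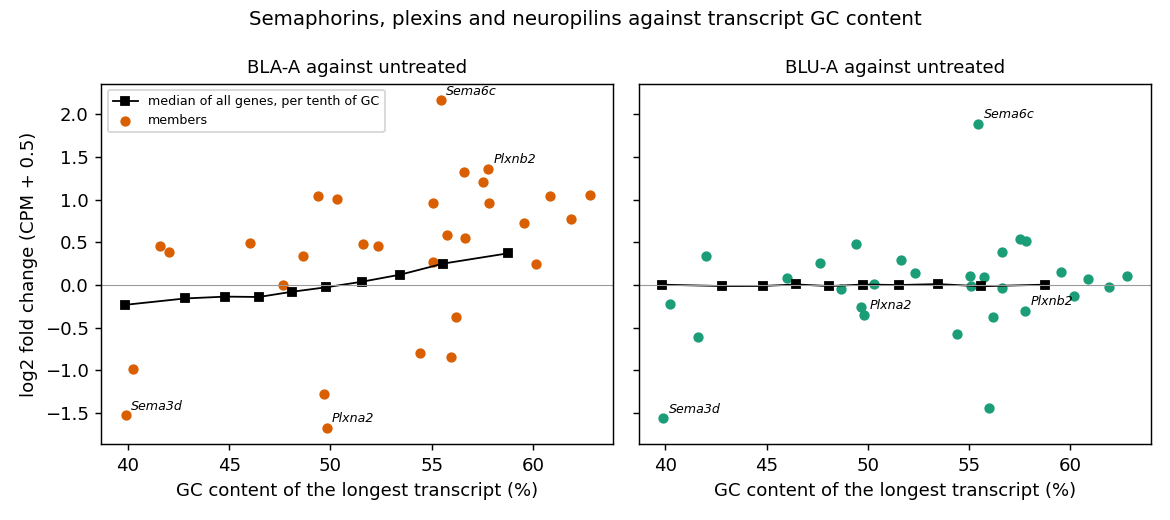
Log2 fold change of the members (coloured points) against the GC content of the longest transcript, in BLA-A and in BLU-A against untreated; black squares are the medians of all genes in 10 classes of GC content. The all-gene medians go from -0.23 to 0.37 across the classes in BLA-A and stay near 0 in BLU-A, and Sema6c lies above them in both.

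Of 46 signalling partners listed for their roles, 41 were kept, and 0 of them passed an adjusted p of 0.05 in the edgeR quasi-likelihood fit. Past 1 in size, 0 were higher and 3 lower with BLA (7.92% and 8.54% of all genes), and 1 higher and 2 lower with BLU (5.66% and 4.64%). In BLA-A, 7 were higher and 2 lower (8.54% and 12.4% of all genes), and in BLU-A 0 were higher and 3 lower (3.35% and 4.5%). The partner medians were 0.02, -0.01, 0.34 and -0.02, against all-gene medians of -0.01, -0.01, -0.01 and 0.001. Growth factors that bind neuropilins were among those higher in BLA-A, with Vegfa at 2472 counts in untreated cells, 3630 with BLA, 2881 with BLU, 5764 with BLA-A and 2618 with BLU-A, and the placental growth factor Pgf at 160, 200, 134, 462 and 157. Furin, the protease that cleaves class 3 semaphorins, had 2693, 1785, 2119, 5850 and 2587 counts. The related convertase Pcsk5 had 37, 46, 41, 493 and 19 counts, the largest BLA-A difference of the list at 3.53 on the log2 scale. A further convertase, Pcsk6, went the other way in BLA-A, at -0.72. The proteases Adam17 (0.24) and Mmp14 (0.48) and the growth factors Vegfb (0.48) and Vegfc (0.34) did not pass 1 there.

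Among the intracellular partners, Rhoa, a GTPase activated downstream of class B plexins, had 4328, 3403, 3806, 9055 and 4005 counts, and Dpysl2, a cytoskeletal mediator of semaphorin signals, had 7162, 7547, 7523, 14079 and 7056. Both were high in BLA-A only. The GTPases Rras and Rnd3 were lower in BLA-A, at -0.91 and -0.71, short of the threshold. Rap1a, a GTPase inactivated by plexins, was past 1 in BLU alone, at 1.11. Farp1, an exchange factor that acts with class A plexins, was higher in all 4 treatments by 0.86, 0.81, 0.61 and 0.55 on the log2 scale. These values were short of the threshold in every treatment. Partners past 1 in at least 2 treatments were all low. Crmp1 had 31, 3, 32, 5 and 0 counts and Dpysl5, of the same cytoskeletal family, 60, 45, 19, 26 and 17. Kdr, a receptor of vascular endothelial growth factor, had 21, 0, 37, 6 and 0 counts, and the related Flt4 had 40, 0, 13, 2 and 24. Of the 18 cell type markers kept, 1 was past 1 upward in BLA-A, where 8.54% of all genes were. This was the epithelial Cldn4, with 454 counts in untreated cells and 2754 in BLA-A. Past 1 downward were 5, namely Ptprc, Adgre1, Tek, Rbfox3 and Syt1, where 12.4% of all genes were. All 5 had a mean under 10 CPM, and of all genes with a mean of 10 CPM or less, 31.6% were past 1 in BLA-A in either direction. With BLA, 5 markers were also past 1 downward, namely Ptprc, Adgre1, Vwf, Rbfox3 and Syt1, where 8.54% of all genes were. BLU and BLU-A had 2 each, where 4.64% and 4.5% of all genes were past 1 downward. Of the other epithelial markers in BLA-A, Epcam was at -0.79, while Cdh1 was at 0.91, Krt8 at 0.66, Krt7 at 0.29, Krt18 at 0.27 and Esrp1 at 0.02. Whether the BLA-A pattern of the members is tied to these changes was not tested.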

How the data were processed

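RNA-seq gene counts of 15 columns from 4T1 cells were analysed. Per the labels and the study's methods, the authors depleted ribosomal RNA, sequenced on a NovaSeq X and aligned to GRCm39 with STAR, and the deposited values are raw counts per gene, taken over whole genes with introns included, with a forward-strand setting. The submitters' processing notes also name DESeq2 1.36.0. Tables of the authors' own fold changes and gene set results were not used. Columns of a condition that differed by less than sampling noise (chi-square per degree of freedom under 1.5 over genes averaging 10 counts or more) were averaged and rounded to 1 library. Libraries were normalized by TMM in edgeR 4.0.16 (R 4.3.3), with factors of 0.905 in BLA-A and 1.01 to 1.03 in the others. Genes with 1 CPM in at least 1 library were kept, 0.5 CPM was added before log2, and ratios have exact conditional intervals. The 4 treated libraries were tested against the untreated one by edgeR quasi-likelihood with Benjamini-Hochberg adjustment, and by DESeq2 1.42.0 as an alternative. Positions and GC content came from GENCODE M39, with positions matched by symbol for 92.6% of kept genes and for all 31 members. Scripts were tested on simulated data. Replicate numbers did not pair the columns (mean correlation of deviations -0.000998 over 30 pairs). Values in each library were given for Sema6c, its class and the 3 members with the highest untreated level per kb of span. They were also given for members or partners past 1 in at least 2 treatments with at least 30 counts in 1 library. Other members were named from the whole list. Partners past 1 in a single treatment, Farp1, the partners named beside these and the markers named for BLA-A were chosen after their values were seen. Members and lists were chosen with earlier results of these data known.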

Additional observations from a re-analysis of the deposited data

How the results depend on the processing

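With 1 library per condition, counting error is the only error known for a single fold change, and it is relatively widest for the lowest members. In untreated cells, Sema6c at 16 counts had a 95% interval of 0.343 to 0.975 CPM, and Sema3a at 188 counts one of 6.08 to 8.14 CPM. Of 148 values recomputed under alternatives, 131 were classed as unchanged, by a rule set for each kind of value. Member counts and medians had to stay close to the main value, and Sema6c values per treatment near their counting interval. For the fits on all treated libraries, calls by adjusted p had to stay the same. The rule left room for movement, as BLA-A counts from 8 to 15 members, beside 11 in the main setting, were classed as unchanged. A pseudocount of 2 left 1 member past a log2 fold change of 1 with BLA, 1 with BLU, 6 with BLA-A and 1 with BLU-A, and a mean over 10 CPM, an alternative chosen after the data were seen, left 0, 0, 5 and 0, since both act on low genes. With the pseudocount of 2, the shares of all genes past 1 were 5.34%, 2.27%, 10.5% and 1.18%. Sema6c stayed above 1 in 35 of 36 values per treatment, and the exception was 0.88 in BLA with a pseudocount of 2. The BLA-A member median was 0.29 with total-count scaling and 0.66 with a filter of 10 counts, for which 31 members remained. Treating the 15 columns as separate samples called 6 members (Plxna4, Sema3d, Sema3e, Sema6a, Sema6c and Sema7a) at an adjusted p under 0.05 in edgeR, and adding a replicate block also called 6, which is 20.0% of members against 20.1% of all genes without the block and 14.2% with it. The Sema6c log2 fold change was 2.64 in both, with adjusted p of 3.4e-06 without and 5.14e-05 with the replicate block (edgeR quasi-likelihood). Those fits take the columns as the separate samples their labels number, although their counts differed by less than sampling noise. The paper describes its replicates in general as independent biological ones, while the labels do not name separate cultures. Its supplement reports 15 aligned libraries but gene-level counting from 5 alignment files, and lists the read files under a heading of subset reads. If the columns are not separate cultures, the p-values of those fits leave out the spread between cultures. Leaving out 1 treated library at a time called 0 members, and without BLA-A the edgeR adjusted p of Sema6c was 0.209 and 6 members (20.0%, against 10.5% of all genes) had an unadjusted p under 0.05. Over the edgeR and DESeq2 fits on libraries, its adjusted p ranged from 0.0886 to 1.00.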
